A study of Mus musculus with 10 samples.

Results

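Mandibular prominences (MNPs), the buds of the embryonic face from which the lower jaw and much of the tongue arise, were compared between mouse embryos that lacked the transcription factors Gli2 and Gli3 in the neural crest and wild-type (WT) embryos. RNA-seq libraries were made at embryonic day 10.5 in the CD1 strain. The mutant carried floxed alleles of both genes (Gli2 f/f and Gli3 f/f) together with Wnt1-Cre+ (Gli2/3 cKO), and the controls were labelled wild-type, with neither floxed alleles nor Cre named. The comparison used 3 of the 6 libraries with a count file: 1 Gli2/3 cKO library (number 3) and 2 WT libraries (numbers 3 and 4). The labels list 3 Gli2/3 cKO and 4 WT samples, and the others were not analysed here, so there is no mutant replicate. The remaining 3 libraries, Hand2 f/f; Wnt1-Cre+ (Hand2 cKO), entered the fit to estimate the spread between libraries and are given beside a value where they bear on it. The number of embryos behind each library was not stated.

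Of 33641 gene symbols, 22662 had at least 1 estimated count in the 3 libraries and 13488 passed the filter, which asked for a CPM (counts scaled to the library total) of at least 1 in 2 or more of the 3. A further 276 genes reached 1 CPM in the mutant library only and were left out by that filter. A gene is described as outside the WT range where its level in the mutant lay below both WT libraries or above both. Levels are CPM after TMM scaling (trimmed mean of M values), and log2 fold changes are given with their standard error from edgeR, whose quasi-likelihood test also gave every p-value, adjusted by Benjamini-Hochberg over all 13488 genes. Because the mutant group is 1 library, its spread is taken to be that of the WT and Hand2 cKO libraries.

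Hedgehog signalling begins when a secreted ligand, in the facial epithelium mainly Sonic hedgehog (Shh), binds its receptor Patched and so frees the membrane protein Smoothened. The signal ends at the Gli transcription factors: Gli2 acts mostly as an activator, Gli3 is readily cut into a repressor, and Gli1 is an activator that is itself switched on by the pathway. In the facial mesenchyme, which neural crest cells form, forkhead (Fox) genes are among the best known responders. Wnt1-Cre acts in the neural crest lineage and not in the epithelium, endothelium, blood or muscle of the arch, so a dissected MNP still holds cells with intact Gli2 and Gli3. In such bulk samples, fewer cells of a type and less RNA per cell cannot be told apart. Every mutant library carries Cre and no WT library does by its label, so the presence of Cre and the loss of Gli2 and Gli3 cannot be told apart either.

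Gli proteins bind the letters GACCACCC, and GACCTCCC is a near variant. Promoter sequences from RefSeq (build GRCm38.p6, 250 bases before to 50 after each start) were matched by symbol to 10092 of the genes that passed the filter. They are shown for Foxf2, which is among the genes that differed most, and for Foxd2, a related gene that was also low. Map1b and Postn are shown as genes low in the mutant with a motif in a window. Capitals mark the motif, which in Map1b reads GGGTGGTC on the printed strand, 150 bases before the start. In the printed Postn window it reads GACCTCCC, 4 bases before the start of that window's transcript. Postn has another window (chr3:54360857-54361156, plus strand), not printed, in which neither motif was found.
Foxf2 (chr13:31625566-31625865, plus strand): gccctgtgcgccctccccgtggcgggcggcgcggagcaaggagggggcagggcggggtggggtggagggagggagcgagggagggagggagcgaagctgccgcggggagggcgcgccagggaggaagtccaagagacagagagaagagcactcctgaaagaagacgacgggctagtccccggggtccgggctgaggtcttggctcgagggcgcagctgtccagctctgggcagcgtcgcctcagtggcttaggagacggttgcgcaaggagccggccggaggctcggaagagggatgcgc
Foxd2 (chr4:114908849-114909148, minus strand): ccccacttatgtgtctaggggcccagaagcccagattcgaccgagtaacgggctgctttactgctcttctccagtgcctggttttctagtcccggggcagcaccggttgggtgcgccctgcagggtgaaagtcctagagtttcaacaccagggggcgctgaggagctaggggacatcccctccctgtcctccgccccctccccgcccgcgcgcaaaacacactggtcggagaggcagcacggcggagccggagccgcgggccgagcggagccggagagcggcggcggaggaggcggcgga
Map1b (chr13:99516553-99516852, minus strand): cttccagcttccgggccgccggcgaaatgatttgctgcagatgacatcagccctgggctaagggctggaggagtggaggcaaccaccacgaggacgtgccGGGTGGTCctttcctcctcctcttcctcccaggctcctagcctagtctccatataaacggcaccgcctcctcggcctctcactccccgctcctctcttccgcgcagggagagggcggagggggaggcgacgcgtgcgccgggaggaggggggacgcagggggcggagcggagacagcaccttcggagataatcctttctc
Postn (chr3:54359017-54359316, plus strand): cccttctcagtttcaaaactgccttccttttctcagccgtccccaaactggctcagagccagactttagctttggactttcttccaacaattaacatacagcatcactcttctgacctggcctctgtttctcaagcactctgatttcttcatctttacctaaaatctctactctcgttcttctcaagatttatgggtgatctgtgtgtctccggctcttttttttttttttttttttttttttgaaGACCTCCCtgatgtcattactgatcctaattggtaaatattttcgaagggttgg

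No match to either motif was found in the printed windows of Foxf2 and Foxd2. A gene was counted as holding a motif if any of its windows did. Of the tested genes with a promoter, 1.09% held GACCACCC on either strand. The share was 4 of 356 (1.12%) among genes below both WT libraries by over 1.5-fold and 0 of 158 among genes above both by that margin. GACCTCCC stood in 1.84% of all tested genes with a promoter, in 10 of 356 (2.81%) of those below and in 6 of 158 (3.80%) of those above. The window reaches only the bases around the start, and a promoter was matched for 356 of the 568 low genes. Foxf1, Foxl1, Foxc2 and Gli1 had no matched promoter, so these shares do not cover them. Map1b, which encodes a microtubule-associated protein, was at 124 and 103 CPM in WT 3 and WT 4 and at 54.0 CPM in the mutant. Postn, which encodes the matrix protein periostin, was at 41.1 and 34.6 CPM in WT and 8.18 CPM in the mutant. Both were chosen here for their motif after their values were seen.

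The targeted genes were lower in the mutant, but far from absent. Gli2 (chr1:118834132-119053619, mm10) was at 122 CPM in WT 3, 107 in WT 4 and 58.8 in Gli2/3 cKO, which is 51.4% of the WT mean. Gli3 (chr13:15463235-15730026) was at 175, 147 and 80.8 CPM, or 50.2% of the WT mean. For both genes the mutant lay below both WT libraries, 1.82-fold under the nearer of them, and also below all 3 Hand2 cKO libraries, which ranged from 78.8 to 122 CPM for Gli2 and from 112 to 195 for Gli3. Neither passed the test (log2 fold change -0.96 ± 0.32 for Gli2 and -0.995 ± 0.37 for Gli3, both with an adjusted p = 0.99984). Counts were summed over all transcripts of a gene and do not show which exons the reads came from, and cells outside the neural crest keep both genes, so these levels do not measure how complete the deletion was.

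Among the parts of the pathway, Gli1, Gli2, Gli3, Ptch1 and Scube1 lay below both WT libraries by over 1.5-fold. The ligand gene Shh lay above both by that margin. 0 components were called by edgeR, where over all genes tested it called 0.0148% lower and 0.0% higher. Of 24 Hedgehog components, 21 passed the filter, 13 lay below both WT libraries and 3 above both, where all genes tested gave 34.1% below and 37.2% above. By more than 1.5-fold, 6 components were below and 1 above, where the share of all genes tested was 4.21% below and 2.21% above. The median log2 fold change of the 21 was -0.09, against 0.0080 for all genes.

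Gli1, the activator that the pathway switches on, was the farthest from its WT range of these. It stood at 109.7 and 121 CPM in WT and at 25.9 CPM in Gli2/3 cKO, while Hand2 cKO libraries held 95.02 to 106 CPM. The mutant library was thus the lowest of all 6, 4.24-fold under the nearer WT library. The log2 fold change was -2.16 ± 0.21 (95% interval -2.67 to -1.64) with an adjusted p = 0.147, so the gene was not called.

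The receptor gene Ptch1 differed less. Ptch1, which encodes the main Hedgehog receptor and is a classical pathway target, was at 263 and 258 CPM in WT and 160.3 in the mutant (log2 fold change -0.70 ± 0.41, adjusted p = 0.99984). The Hand2 cKO libraries 1 to 3 held 235, 137 and 273 CPM of Ptch1. Hand2 cKO 2, with intact Gli2 and Gli3, thus lay lower than the mutant, and the other Hand2 cKO libraries lay higher. Hhip, which encodes a ligand-binding protein of the cell surface, is another known target. It was at 11.3 and 9.89 CPM in WT and 8.91 in the mutant. The Hand2 cKO libraries 1 to 3 held 14.9, 6.80 and 18.3 CPM of Hhip, so Hand2 cKO 2 was again the library under the mutant. Hand2 cKO 2 also differed from Hand2 cKO 1 and 3 in other genes. It held less Cdon (43.9 against 82.7 and 85.9 CPM) and more Prrx2 (130 against 73.2 and 73.7 CPM). Its TMM factor (0.903) was the lowest of all libraries, and its part in these comparisons was not tested.

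On the ligand side, Shh was at 10.5 and 10.4 CPM in WT and at 18.5 CPM in Gli2/3 cKO. That value was above the 10.2 to 12.4 CPM of the Hand2 cKO libraries as well, 1.76-fold over the nearer WT library (log2 fold change 0.82 ± 0.22, adjusted p = 0.847). Shh is made in the epithelium, where Wnt1-Cre does not act. Scube1, a secreted protein of a family that helps release Hedgehog ligands, was at 81.2 and 57.7 CPM in WT and 30.98 in the mutant. Hand2 cKO libraries held 33.0 to 50.8 CPM of Scube1, also under both WT libraries. The ligand genes Ihh and Dhh and the family member Scube2 did not pass the filter.

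The steps between receptor and Gli proteins stayed close to WT. Smo, which encodes Smoothened, was at 283 and 290.4 CPM in WT and 272 in the mutant. Sufu, the inhibitor that holds Gli proteins in the cytoplasm, was at 107, 105 and 108 CPM, and Kif7, a ciliary motor of the pathway, at 45.3, 40.4 and 46.8. The co-receptor genes Boc and Cdon, the ciliary genes Evc and Evc2 and the receptor gene Gpr161 lay below both WT libraries, each within 1.5-fold, while Disp1, Gas1, Hhat, Scube3 and Spop lay inside the WT range.

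**Figure D1:**
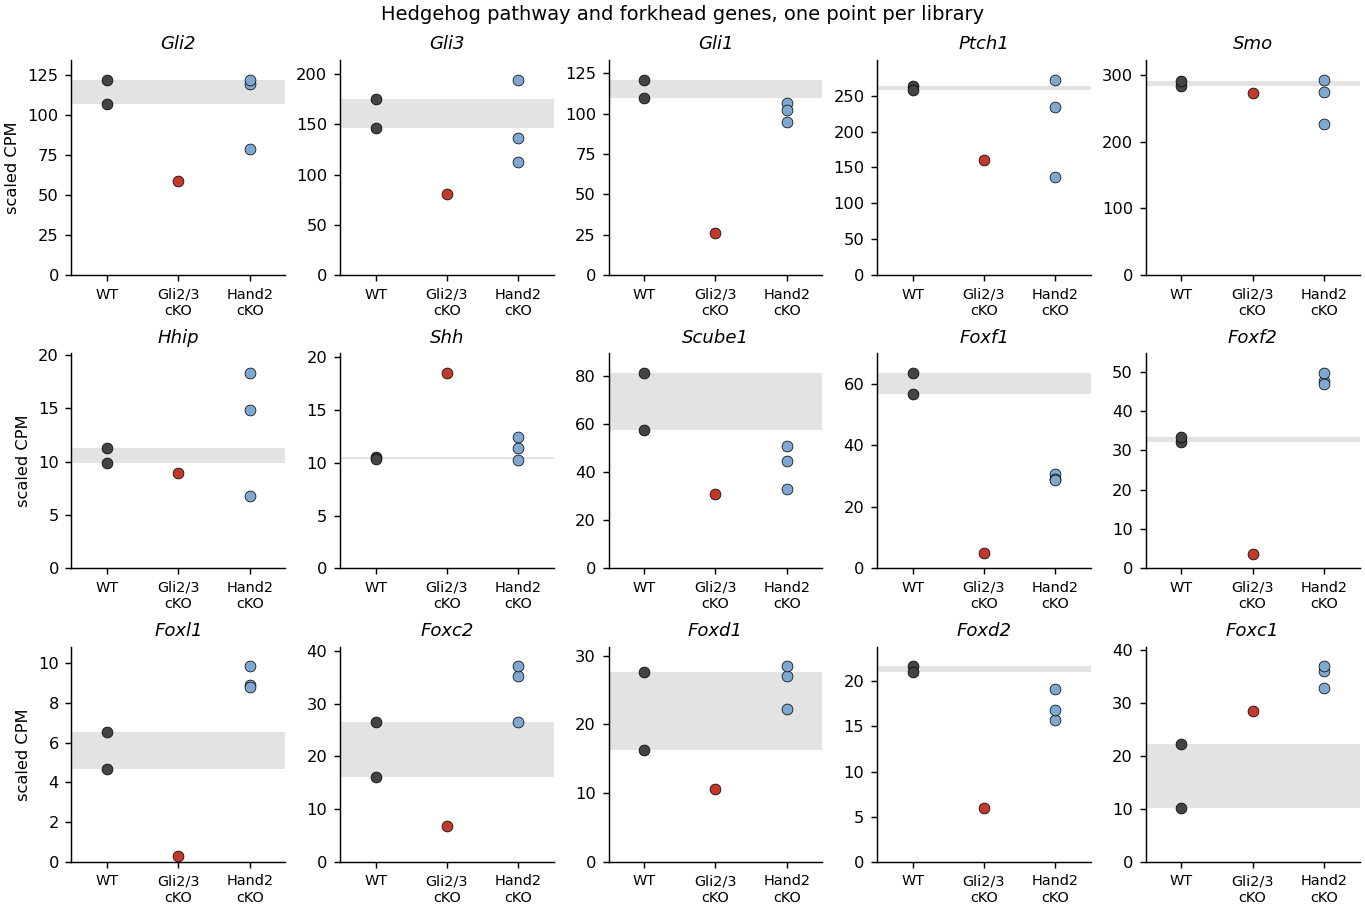
Scaled CPM of 8 Hedgehog components (first to eighth panel) and 7 forkhead genes, each point being 1 library, on axes that start at 0; the grey band spans the 2 WT libraries. Foxf1, Foxf2, Foxl1 and Gli1 sit far below every other library in Gli2/3 cKO, Gli2 and Gli3 at about 50% of WT, and Shh above all others.

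The forkhead genes held the clearest differences. Foxf1 and Foxf2, transcription factors of the mesenchyme that responds to Hedgehog ligands, fell in the mutant and were the only genes called lower by edgeR (adjusted p below 0.05 and a fold above 1.5), 0.0148% of the genes tested. 0 genes were called higher, 0.0% of those tested. At an unadjusted p under 0.05 there were 399 lower and 181 higher genes, and DESeq2 called 103 lower and 13 higher. Both genes missed the threshold when WT 3, WT 4, Hand2 cKO 1 or Hand2 cKO 3 was left out, with an adjusted p of up to 0.144 for Foxf1 and 0.173 for Foxf2. Without Hand2 cKO 2 edgeR called 26 genes lower and 4 higher, and Foxf1, Foxf2, Gli1, Foxl1 and Foxd2 were among the lower ones.

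Foxf1 (chr8:121084386-121088144) was at 56.6 CPM in WT 3, 63.5 in WT 4 and 4.90 in Gli2/3 cKO. Its level was 12.3-fold lower than the WT mean, a log2 fold change of -3.62 ± 0.21 (95% interval -4.13 to -3.10, adjusted p = 0.0269). Hand2 cKO libraries held 28.8 to 30.7 CPM, under the WT libraries and over the Gli2/3 cKO library. Foxf2 (chr13:31625816-31631403) was at 32.1 and 33.5 CPM in WT and at 3.67 CPM in the mutant, 8.95-fold lower (log2 fold change -3.16 ± 0.20, adjusted p = 0.0269). In Hand2 cKO it stood at 46.8 to 49.6 CPM, over both WT libraries, so the mutants stood on opposite sides of WT for Foxf2.

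Foxl1, a forkhead gene beside Foxf1, had the largest distance among forkhead genes but rested on few counts. It was at 6.54 and 4.66 CPM in WT and 0.309 CPM in the mutant, which is 8 estimated counts, against 8.83 to 9.85 CPM in Hand2 cKO. The log2 fold change was -4.19 ± 0.43 (adjusted p = 0.151), so the gene was not called. Foxd2 was at 21.7 and 21.1 CPM in WT, 5.98 in the mutant and 15.7 to 19.1 in Hand2 cKO (log2 fold change -1.84 ± 0.24, adjusted p = 0.265). Both values lay below all 5 other libraries.

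Foxc2 and Foxd1, both expressed in arch mesenchyme, differed between the WT libraries themselves. Foxc2 was at 26.5 and 16.1 CPM in WT and 6.83 in the mutant (log2 fold change -1.65 ± 0.40, adjusted p = 0.715). Foxd1 was at 27.6 and 16.2 CPM in WT and 10.6 in the mutant, 1.53-fold under the nearer WT library. Foxe1, a gene of pharyngeal and oral epithelium in which Wnt1-Cre does not act, was at 13.8, 13.2 and 7.29 CPM. Foxc1 went the other way, with 22.3 and 10.1 CPM in WT and 28.6 in the mutant, inside neither the WT range nor the 32.9 to 36.9 CPM of Hand2 cKO.

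Over the family, 27 of 41 forkhead genes passed the filter, and 14 lay below both WT libraries and 7 above both. By more than 1.5-fold, 7 were below (Foxf1, Foxf2, Foxl1, Foxc2, Foxd1, Foxd2 and Foxe1) and 0 above. All genes tested gave 34.1% below and 37.2% above, or 4.21% and 2.21% by over 1.5-fold. As for these 7 forkhead genes, they were counted with their values known. All 7 also lay below all 3 Hand2 cKO libraries, which holds for 375 of the 568 genes (66.0%) that were below WT by that margin. Widely expressed members stayed near WT, such as the cell-cycle regulator Foxm1 at 204, 203 and 202 CPM. The median log2 fold change of the 27 was -0.35.

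Of the low forkhead genes, Foxf1, Foxc2 and Foxl1 lie close together on chromosome 8. Foxc2 starts 31.8 kb and Foxl1 43.6 kb from the start of Foxf1. Mthfsd, a folate enzyme gene 24.01 kb from Foxf1 and so between them, was at 41.4 and 43.2 CPM in WT and 41.5 in the mutant, inside the WT range. Of the 17 protein-coding neighbours of Foxf1 within 1 Mb, Foxc2 and Foxl1 were the 2 below both WT libraries by over 1.5-fold, and 0 were above by that margin. Foxf2 lies on chromosome 13, and its neighbour Foxc1, 181 kb away, was above both WT libraries, while 0 of its 4 neighbours passed 1.5-fold. Around the deleted genes themselves, 0 of 9 neighbours of Gli2 and 0 of 3 neighbours of Gli3 passed 1.5-fold in either direction. Over all genes tested 4.21% lay below and 2.21% above by that margin. With so few neighbours around Foxf2, Gli2 and Gli3, a count of 0 is near those shares.

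**Figure D2:**
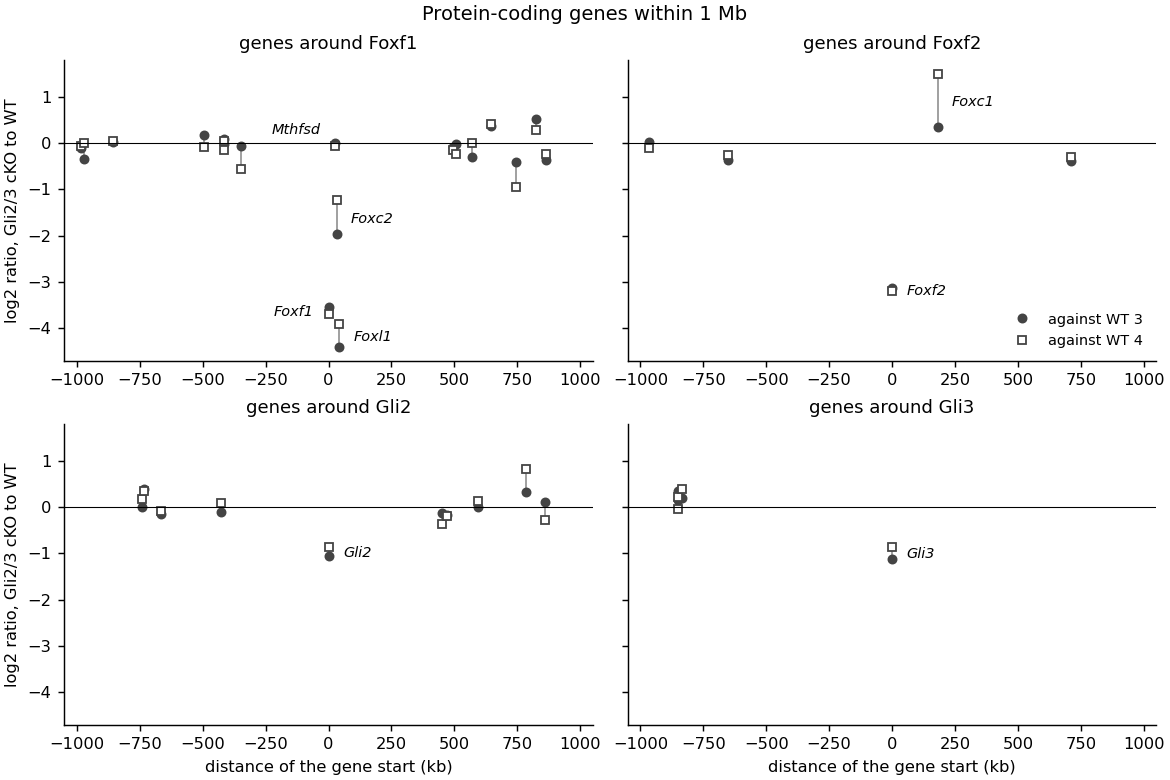
Log2 ratio of scaled CPM between Gli2/3 cKO and each WT library (filled circle WT 3, open square WT 4) for protein-coding genes within 1 Mb of the start of Foxf1, Foxf2, Gli2 and Gli3, by the distance of their starts in kb. Around Foxf1 only Foxc2 and Foxl1 lie below both WT libraries by over 1.5-fold with it, and Mthfsd between them stays near 0.

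Genes known to respond to Hedgehog signalling in facial mesenchyme were described as a list of 27, chosen with earlier results of these data known. Of the 26 that passed the filter, 17 lay below both WT libraries and 5 above, and 10 were below by over 1.5-fold and 0 above. All genes tested gave 34.1% below and 37.2% above, or 4.21% and 2.21% by over 1.5-fold. The 10 low genes included Gli1, Ptch1, Pax9 and 6 forkhead genes that the family above also counts. Of the 10, 9 were also below every Hand2 cKO library, Ptch1 being the exception. Pax9, a transcription factor of tooth and palate mesenchyme, was at 10.7 and 4.39 CPM in WT and 2.74 in the mutant, against a Hand2 cKO mean of 13.6 ± 3.04 (SD, n = 3). The rest of the list stayed near WT: the cyclin genes Ccnd1 and Ccnd2, Bmp4 and the repressor gene Prdm1 lay inside the WT range, and Igfbp5, a binding protein of insulin-like growth factors, was at 568, 569.9 and 574 CPM. The median log2 fold change was -0.39.

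Across all genes the mutant lay below both WT libraries in 4600 (34.1%), above both in 5022 (37.2%) and between them in 3866. By over 1.5-fold 568 genes (4.21%) were below and 298 (2.21%) above. The WT libraries differed from each other by over 1.5-fold in 1306 genes (9.68%). Against a single WT library, the like comparison, the mutant passed 1.5-fold in 1169 genes below and 1017 above without WT 3, and in 821 and 626 without WT 4.

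**Figure D3:**
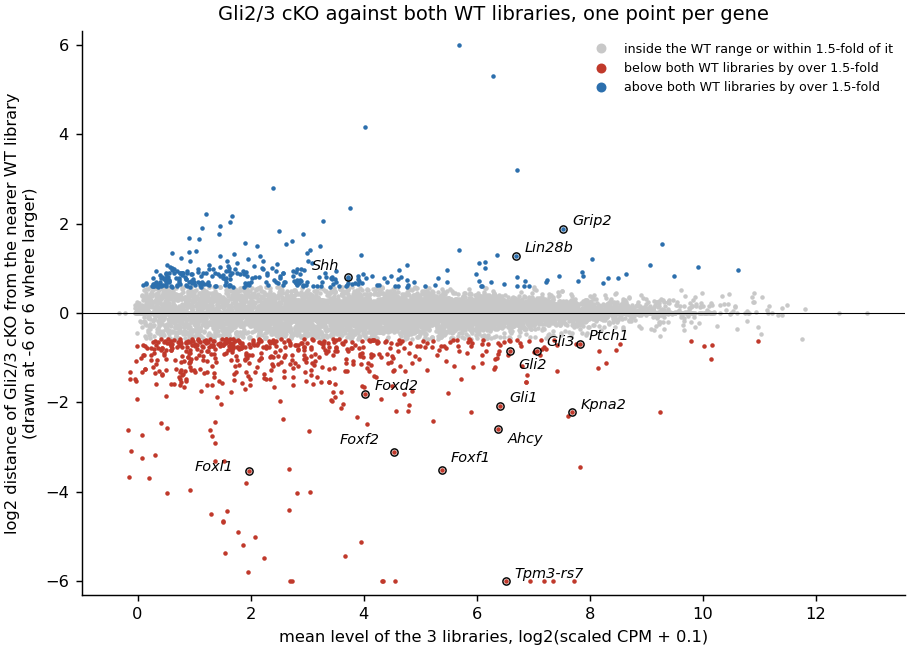
Each point is 1 of 13488 genes, with the mean level of the 3 libraries on the x axis and the log2 distance of Gli2/3 cKO from the nearer WT library on the y axis (0 inside the WT range). Red points (568) and blue points (298) are past 1.5-fold, and Foxf1 and Foxf2, the called genes, stand apart from most genes of their level.

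The 15 protein-coding genes farthest below WT fell into genes with their own sequence and genes that share it with copies. Besides Foxl1, Foxf1, Foxf2 and Gli1, those with little shared sequence were Zcchc5, Sdpr, Myo7a and Col6a3. Sdpr, which encodes a protein of caveolae, was at 10.6 and 11.9 CPM in WT and 1.62 in the mutant, inside the 1.116 to 1.90 CPM of Hand2 cKO. Zcchc5, a gene of retrotransposon origin on the X chromosome, was at 13.1, 10.8 and 0.579 CPM, with 0.856 to 1.98 CPM in Hand2 cKO. Both separated the WT libraries from every library with Cre, and both comparisons share the same WT libraries.

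Myo7a, a myosin gene of sensory hair cells, was at 21.4 and 24.4 CPM in WT and 3.74 in the mutant, with 12.1 to 23.7 CPM in Hand2 cKO (log2 fold change -2.61 ± 0.47, adjusted p = 0.489). Col6a3, a collagen VI chain of connective tissue, was at 35.8, 28.6 and 6.21 CPM (log2 fold change -2.38 ± 0.62, adjusted p = 0.797), and Hand2 cKO libraries held 7.42 to 19.5 CPM.

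Ahcy, Kpna2, Tpm3-rs7, Fam177a and Duxbl1 share over 30% of their 31-base stretches with another annotated gene, and the authors' program had to divide such reads. Ahcy, an enzyme of the methionine cycle, was at 121 and 111 CPM in WT and 18.4 in the mutant. Summed with its copies Gm4737 and Gm9826, which hold 71.4% of its stretches, it was at 350.2 and 369.5 CPM in WT and 431 in the mutant, so the low value did not remain. Kpna2, a nuclear import factor, went from 401, 175 and 37.6 CPM alone to 402, 421 and 376 CPM with its copies, and the wide gap between the WT libraries closed as well.

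Tpm3-rs7, a copy of the tropomyosin gene Tpm3, was at 124, 149.6 and 0.386 CPM alone and at 368, 413 and 451 CPM summed with Tpm3. Fam177a had 0 counts in the mutant, where 3 counts would be 0.116 CPM, and 7.37 and 11.9 CPM in WT. With its copies the sums were 47.4, 49.1 and 49.7 CPM. Duxbl1, a homeobox gene, stayed below both WT libraries after summing, at 21.9, 12.7 and 8.53 CPM. These 5 genes are therefore uncertain. Zfp990, a zinc finger gene with 48.8% of its stretches shared among several genes, and Aph1b, a subunit of gamma-secretase with 24.8%, are less certain than the others too.

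The 15 protein-coding genes farthest above WT included several whose WT libraries stood far apart. Grip2, which encodes a scaffold protein of synapses, was at 118, 1.48 and 436 CPM, and its WT libraries were farther apart than the mutant was from the nearer of them. Pou3f3, a transcription factor of the upper first arch, was at 3.39 and 1.07 CPM in WT and 12.3 in the mutant, above the 5.07 to 5.53 CPM of Hand2 cKO (log2 fold change 2.43 ± 0.57, adjusted p = 0.683). Emx2, another homeobox gene, was at 7.14, 0.850 and 16.1 CPM, with 9.53 to 13.6 CPM in Hand2 cKO.

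Lin28b, an RNA-binding protein that blocks the maturation of let-7 microRNAs, had close WT libraries. It stood at 71.9 and 65.3 CPM in WT and 174 in Gli2/3 cKO, above the 86.4 to 121 CPM of Hand2 cKO (log2 fold change 1.34 ± 0.24, adjusted p = 0.489). Its paralog Lin28a, looked up after the value of Lin28b was seen, was at 21.01, 37.9 and 74.1 CPM, again above all 5 other libraries (log2 fold change 1.34 ± 0.37, adjusted p = 0.853). The remaining genes with no such copy were Prss22 (a serine protease), Slc15a2 (a peptide transporter), Chrna6 (an acetylcholine receptor subunit), Ulk4, Bche (butyrylcholinesterase), Igsf11, Lypd1, Slc37a2 and Smpdl3b, whose mutant levels ran from 5.44 to 14.9 CPM and whose adjusted p were 0.453 or more. Pagr1a and Zfp991 share 93.2% and 86.1% of their stretches with other genes, and Pagr1a summed with its copy was at 58.4 and 61.9 CPM in WT and 51.9 in the mutant. Zfp991 summed with its copies was at 39.7 and 31.1 CPM in WT and 85.2 in the mutant, still above both.

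**Figure D4:**
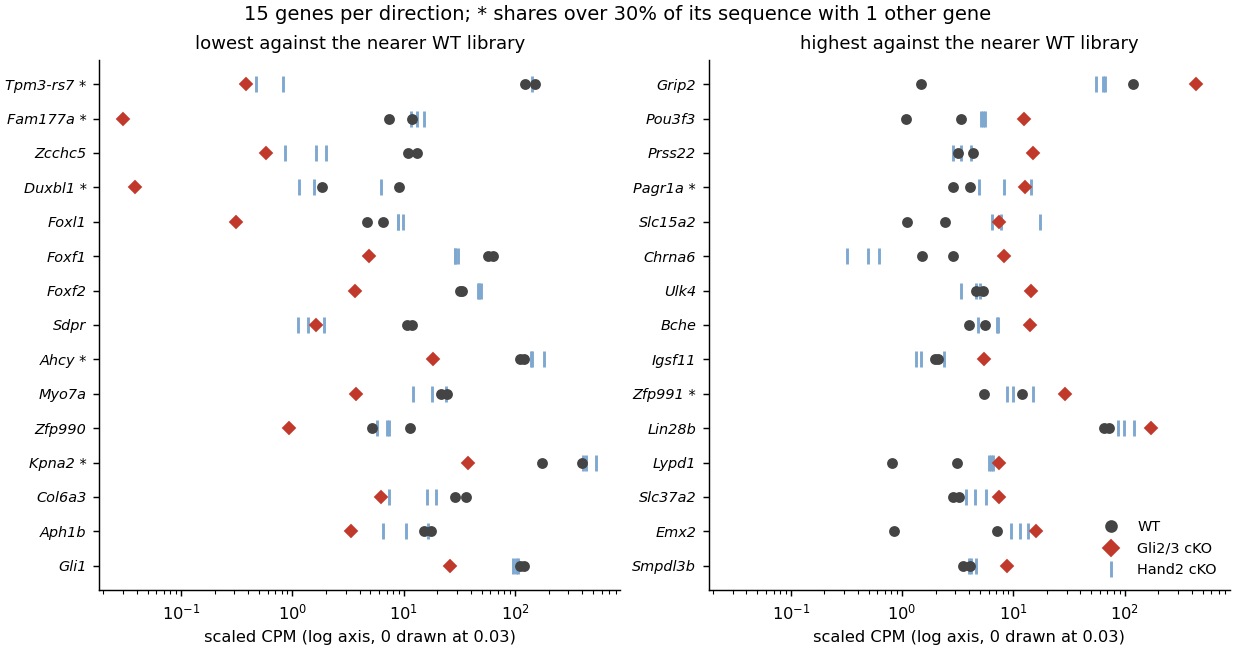
Scaled CPM on a log axis of the 15 genes farthest below (left) and above (right) both WT libraries: dark circles are the 2 WT libraries, red diamonds the Gli2/3 cKO library and blue bars the 3 Hand2 cKO libraries; 0 is drawn at 0.03 CPM. Foxf1, Foxf2 and Gli1 have close WT libraries and a distant mutant, while Grip2, Emx2 and Kpna2 have distant WT libraries, and an asterisk marks genes that share over 30% of their sequence with 1 other gene.

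Pseudogenes made up 2.91% of the genes tested, 8.63% of those below WT by over 1.5-fold and 22.8% of those above. Of the 298 genes above, 225 were protein-coding and 68 were pseudogenes, and of the 568 below, 516 were protein-coding and 49 were pseudogenes. Counts of pseudogenes rest on reads that their parent genes can share.

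Patterning genes of the arch were mostly near WT. Hand2, the transcription factor of the distal (ventral) arch and the other gene of the study, was at 174 and 212 CPM in WT and 145 in Gli2/3 cKO, 1.20-fold under the nearer WT library (log2 fold change -0.41 ± 0.40, adjusted p = 0.99984). The shares of all genes tested were 34.1% below and 37.2% above, or 4.21% and 2.21% by over 1.5-fold. Of 20 tested distal genes, 10 lay below both WT libraries and 8 above, with 4 below and 0 above by over 1.5-fold. Among those 4 were Alx1, Gsc and Hand1, homeobox or bHLH transcription factors of facial mesenchyme. Alx1 was at 18.3 and 22.7 CPM in WT and 5.83 in the mutant, against a Hand2 cKO mean of 23.4 ± 3.15 (SD, n = 3), with a log2 fold change of -1.81 ± 0.29 and an adjusted p = 0.416.

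Hand1, a partner of Hand2 in the distal cap, was at 63.9 and 117 CPM in WT and 35.6 in the mutant, and Gsc at 41.5, 30.8 and 14.1. Both were lower still in Hand2 cKO, at 5.16 ± 1.13 and 4.77 ± 1.24 CPM (mean ± SD, n = 3). The Dlx genes that mark the lower arch did not share this order, as Dlx5 was at 120.0 and 76.7 CPM in WT and 132 in the mutant and Dlx6 at 64.1, 50.7 and 64.3.

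Of 15 genes of the proximal arch and maxilla 5 lay below both WT libraries and 7 above. All genes tested gave 34.1% and 37.2%, or 4.21% and 2.21% by over 1.5-fold. By over 1.5-fold 0 were below and 2 above, Pou3f3 and Emx2, whose WT libraries stood far apart. Dlx1 was at 138, 77.3 and 162 CPM and Dlx2 at 85.3, 62.1 and 105, each within 1.24-fold of the nearer WT library. Of 16 oral-aboral and tooth-field genes 8 lay below and 3 above, with 2 below by over 1.5-fold, Pax9 and Gsc. Lhx8, a tooth-field homeobox gene, was at 99.5 and 94.98 CPM in WT and 137 in the mutant.

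Skeletal regulators and matrix genes held 12 of 20 members below both WT libraries and 5 above, with 6 below and 0 above by over 1.5-fold. Their median log2 fold change was -0.39. Over all genes tested 34.1% lay below and 37.2% above, or 4.21% and 2.21% by over 1.5-fold. Runx2, the master regulator of bone, was at 8.15 and 5.19 CPM in WT and 2.24 in the mutant (log2 fold change -1.58 ± 0.46, adjusted p = 0.887). Sp7, which acts after Runx2 in osteoblasts, was at 3.83, 5.33 and 1.81 CPM. In Hand2 cKO Sp7 stood at 1.78 to 3.40 CPM, a range under both WT libraries that includes the Gli2/3 cKO level. Nkx3-2, a regulator of jaw joint cartilage, was at 7.70, 7.34 and 2.66 CPM, and Pth1r, the receptor of parathyroid hormone-related protein, at 77.5, 80.1 and 50.7.

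Among cartilage matrix genes Col9a2 was at 29.9 and 28.9 CPM in WT and 9.30 in the mutant, with 12.6 to 14.0 CPM in Hand2 cKO (log2 fold change -1.66 ± 0.22, adjusted p = 0.265). Its partner chains Col9a1 (232, 222 and 155 CPM) and Col9a3 (12.4, 12.6 and 9.34 CPM) lay below both WT libraries by 1.43-fold and 1.33-fold. In Hand2 cKO they stood at 203.5 to 216.5 and 7.27 to 8.90 CPM. Both ranges were under WT, and that of Col9a3 was under the Gli2/3 cKO library too. Sox9, the regulator of cartilage fate, went the other way, at 70.7 and 49.0 CPM in WT and 87.0 in the mutant.

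Collagen genes were counted after several had been seen among the low genes. Of 35 tested, 25 lay below both WT libraries and 3 above, 10 below and 0 above by over 1.5-fold. Their median log2 fold change was -0.39. Over all genes tested 34.1% lay below and 37.2% above, or 4.21% and 2.21% by over 1.5-fold. Col1a1 and Col1a2, the chains of type I collagen, were at 102, 95.7 and 40.1 CPM and at 405, 292 and 163 CPM. Col6a1 (20.1, 17.5 and 9.41 CPM) and Col6a2 (23.0, 20.2 and 10.5 CPM) were low with Col6a3. In Hand2 cKO Col1a1 (51.1 to 74.5 CPM), Col6a1 (9.94 to 13.5) and Col6a2 (12.5 to 16.7) lay under both WT libraries and over the Gli2/3 cKO library. Col1a2, at 305 to 412 CPM in Hand2 cKO, did not lie under both WT libraries. Col3a1, a chain of soft connective tissue, was at 672, 542 and 422 CPM, 1.28-fold under the nearer WT library. The adjusted p of these genes ran from 0.265 for Col9a2 upwards, and Col1a1 had 0.635.

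Other signalling pathways were counted in the same way, beside the 34.1% below and 37.2% above of all genes, or 4.21% and 2.21% by over 1.5-fold. Of 21 Bmp genes 8 lay below both WT libraries and 1 above, with Bmp2 the only one past 1.5-fold (2.30 and 1.79 CPM in WT, 0.656 in the mutant). Of 16 Fgf genes 3 lay below and 9 above and 0 passed 1.5-fold, Spry2, a feedback inhibitor of Fgf signalling, being at 21.8, 20.6 and 30.02 CPM. Of 33 Wnt genes 20 lay below and 6 above, with 3 (9.09%) below by over 1.5-fold: the ligands Wnt2b (4.55, 3.13 and 1.47 CPM) and Wnt11 (3.07, 2.10 and 1.20 CPM) and the inhibitor Dkk2 (15.8, 16.4 and 9.18 CPM). In Hand2 cKO Wnt2b stood at 1.25 to 2.70 CPM and Dkk2 at 8.77 to 11.4, ranges under both WT libraries that include the Gli2/3 cKO level. Wnt11 stood at 4.48 to 6.98 CPM there, over both WT libraries. 0 genes of these pathways were called by edgeR in either direction, where over all genes tested it called 0.0148% lower and 0.0% higher.

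**Figure D5:**
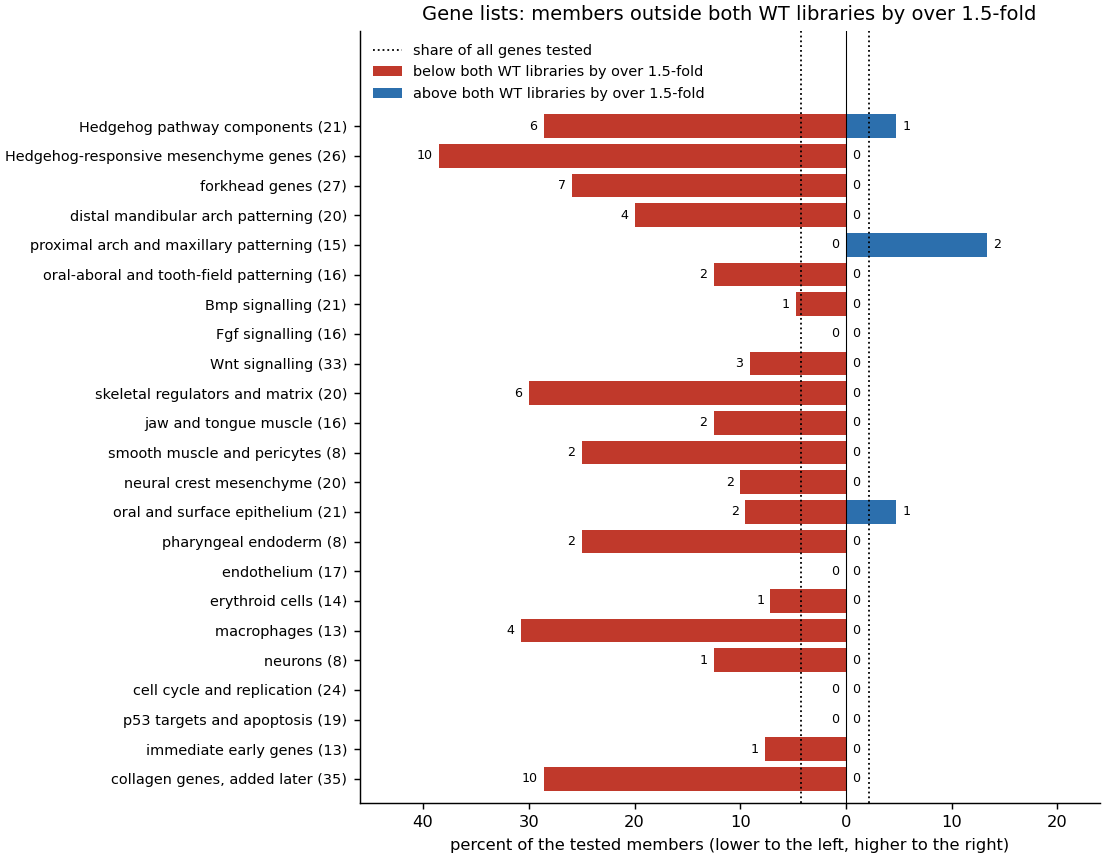
Share of tested members of each gene list (number tested in brackets) that lay below (red, left) or above (blue, right) both WT libraries by over 1.5-fold, with the number of genes at the end of each bar. Dotted lines mark the 4.21% and 2.21% of all genes; Hedgehog-responsive genes reach 38.5% below and proximal arch genes 13.3% above.

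The labelled tissue was checked with markers, beside the 34.1% below and 37.2% above of all genes, or 4.21% and 2.21% by over 1.5-fold. All 20 neural crest mesenchyme genes passed the filter, Twist1 being at 197, 155 and 171 CPM, and 7 lay below both WT libraries and 10 above. By over 1.5-fold 2 were below, Col1a1 and Col1a2, and the sum of the list was 3408 and 2897 CPM in WT and 2989 in the mutant. Markers of neurons, neural progenitors, glia and cardiac muscle mostly missed the filter (8 of 18, 3 of 15, 3 of 9 and 3 of 13 passed). The neural progenitor gene Lhx2, which the eye and forebrain also use, was at 5.43, 1.75 and 9.68 CPM.

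Markers chosen for cells that Wnt1-Cre does not reach were summed in the same way, though bulk levels do not show which cells a marker came from. All genes tested gave 34.1% below and 37.2% above, or 4.21% and 2.21% by over 1.5-fold. Oral and surface epithelium summed to 561 and 574 CPM in WT and 529.7 in the mutant. Of its 21 genes 14 lay below both WT libraries, 2 of them by over 1.5-fold (Grhl3 and Krt15), and Shh lay above by that margin. In Hand2 cKO Grhl3 stood at 8.90 to 12.5 CPM, under both WT libraries (16.2 and 15.1) and over the mutant (6.95). Krt15, at 2.38 to 4.55 CPM in Hand2 cKO, did not lie under both WT libraries. Endothelial genes summed to 419, 489 and 412 CPM, with 0 of 17 past 1.5-fold. Pharyngeal endoderm genes were below both WT libraries in 6 of 8 tested, 2 by over 1.5-fold (Pax9 and Foxe1), and summed to 58.6, 62.0 and 41.2 CPM. Pax9 is also counted among the mesenchyme genes above, so its low level cannot be assigned to the endoderm. Jaw and tongue muscle genes, whose myogenic precursors are of mesoderm origin, summed to 118, 139.6 and 113 CPM. Tnni1 (1.01, 3.09 and 0.270 CPM) and Pax3 (5.43, 7.03 and 2.74 CPM) were below by over 1.5-fold. Neither low level can be assigned to the muscle precursors. Hand2 cKO libraries held 0.189 to 0.866 CPM of Tnni1 and 2.72 to 4.24 of Pax3, ranges under both WT libraries that include the Gli2/3 cKO level.

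Smooth muscle and pericyte genes were below both WT libraries in 7 of 8 tested, with a median log2 fold change of -0.63 and sums of 532, 541 and 383 CPM. Rgs5, a pericyte gene, was at 32.7 and 58.1 CPM in WT and 21.2 in the mutant, and it was lower still in Hand2 cKO at 6.59 ± 2.06 CPM (SD, n = 3). Macrophage genes lay below both in 10 of 13, with 4 past 1.5-fold (C1qa, C1qb, C1qc and Adgre1). Those 4 rested on 12 to 43 estimated counts in the mutant. Cd68 went the other way, at 6.28 and 8.86 CPM in WT and 9.955 in the mutant. The levels of the list were low, summing to 39.0 and 53.1 CPM in WT and 32.6 in the mutant. Beside both lists, all genes tested gave 34.1% below, or 4.21% by over 1.5-fold. Neither list had a member called by edgeR, which called 0.0148% of all genes tested lower and 0.0% higher. The part of these cells in the other differences was not tested.

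Cell division and stress genes gave 0 members past 1.5-fold, where all genes tested gave 4.21% below and 2.21% above. At any distance all genes gave 34.1% below and 37.2% above. Of 24 cell-cycle genes 13 lay below both WT libraries and 8 above, and their sum was 6281, 6396 and 6265 CPM. Mki67, a marker of dividing cells, was at 862, 874 and 817 CPM. Of 19 p53 targets 7 lay below and 9 above, with the cell-cycle inhibitor Cdkn1a at 8.66 and 9.62 CPM in WT and 13.0 in the mutant.

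The libraries also differed in ways that the genotype does not set. The total of estimated counts was 49545102 for WT 3, 21420197 for WT 4 and 25421663 for Gli2/3 cKO, so low genes rest on fewer counts in WT 4 and in the mutant. Haemoglobin genes took 0.264% and 1.26% of counts in WT 3 and WT 4 and 0.344% in the mutant. Of 14 erythroid genes 12 lay inside the WT range, where 3866 of all 13488 genes tested did. That range was wide, as the erythroid list summed to 2650 CPM in WT 3, 12491 in WT 4 and 3514 in the mutant. Genes of the Y chromosome were near 0 in WT 3 and high in WT 4 and the mutant (Ddx3y at 0.195, 45.8 and 56.2 CPM), so WT 3 stood apart from the other libraries compared in its Y-linked RNA. Among the libraries used for the spread, Hand2 cKO 2 had the lowest TMM factor of all 6 (0.903). It held less Mki67 than Hand2 cKO 1 and 3 (492 against 761 and 797 CPM) and more Prrx2 (130 against 73.2 and 73.7 CPM). The part of depth, blood and sex in the differences was not tested.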

How the data were processed

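RNA-seq of MNPs at embryonic day 10.5 was grouped by labelled genotype. Per the study's methods the authors mapped paired-end reads to mm10 and determined abundance in Strand NGS. Neither its version nor its annotation is given in the sources used here. The deposited files hold expected counts, that is, estimated reads for each of 105129 transcripts. They were summed by gene symbol and rounded, although the planned test assumed whole-number counts. Of the transcripts 103723 matched GENCODE M21 (mm10), 97.8% of them with the same symbol. Depth ran from 21420197 to 53326697 estimated counts.

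edgeR 4.0.16 in R 4.3.3 fitted all 6 libraries by genotype (TMM scaling, 3 residual degrees of freedom, a prior of 2.92, common biological coefficient of variation 0.252). The distance from the nearer WT library used an offset of 0.1 CPM. A call needed both an adjusted p below 0.05 and a change of over 1.5-fold. The authors used DESeq2 inside Strand NGS, in a version not given in the sources used here. Here DESeq2 1.42.0 was an alternative, with other scalings, filters, a length correction and each library left out. Scripts were tested on simulated data. The genes, lists and rules were chosen with earlier results of these data known. Named genes were pathway members, called genes, the 15 genes per direction farthest from WT (mean of at least 3 CPM, numbered models, ribosomal, mitochondrial and haemoglobin genes left out), and up to 4 members per list and direction, some left out for room. Shared sequence was counted over 31-base stretches of GENCODE transcripts, a check added after the values were seen. Nothing shows that libraries came from separate litters, so p-values measure the spread between these libraries only, and the floor of 3 counts covers counting error only. Hox genes (2 of 39 tested), immediate early genes (13 tested, Jun below both WT libraries by over 1.5-fold) and cardiac muscle (Ryr2 below by that margin) are given here by count alone. Some members of the lists are counted but not reported by name here.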

Additional observations from a re-analysis of the deposited data

How the results depend on the processing

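The calls of edgeR rest on a spread borrowed from other groups, and their number moved with the fit. Calls stayed at 2 lower and 0 higher with DESeq2 size factors, total counts, upper-quartile scaling, filterByExpr, a robust prior or protein-coding genes only. They came to 13 lower and 8 higher with no filter, 103 and 13 with DESeq2, 55 and 9 with the 3 libraries alone, and 18 and 2 with the length trend removed. Leaving out 1 library in turn gave 0 to 26 lower and 0 to 4 higher calls. 0 were called without WT 3 or WT 4, 1 lower without Hand2 cKO 1 (Gm4366) or Hand2 cKO 3 (Tpm3-rs7), and 26 lower and 4 higher without Hand2 cKO 2. Genes below and above both WT libraries by over 1.5-fold numbered 1184 and 1266 with no filter, 244 and 60 at 2-fold and 4600 and 5022 at any distance. With 1 WT library left out, an alternative chosen after seeing the data, they ran from 821 to 1169 below and from 626 to 1017 above. The cause was not tested.

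Of 1185 log2 fold changes recomputed (79 named genes), 0 changed sign, 61 passed the threshold that they had missed, and 8, those of Foxf1 and Foxf2 without WT 3, WT 4, Hand2 cKO 1 or Hand2 cKO 3, no longer passed it. Foxf1 stayed between -3.70 and -3.54 and Foxf2 between -3.19 and -3.14. The adjusted p of Gli1 ran from 1.03e-17 to 0.441 and that of Foxl1 from 1.03e-08 to 0.337. No paired analysis was possible because the groups compared share only the number 3 and a term for the number would leave no residual degrees of freedom. With 25421663 estimated counts and no replicate in the mutant, a gene that was not called may still differ.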
